A study of Mus musculus with 12 samples.

Results

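The ligands and receptors of the vascular endothelial growth factor (VEGF) family were followed in the cervix of pregnant mice given a synthetic progestin. The 9 genes were chosen by name: 4 ligands (Vegfa, Vegfb, Vegfc and Pgf), 3 receptor tyrosine kinases (Flt1, Kdr and Flt4) and 2 co-receptors (Nrp1 and Nrp2), out of 18194 genes named on the array. All mice were of the outbred CD1 stock on gestation day 15. In the MPA group (n = 6 arrays) each dam had received 1 mg of medroxyprogesterone acetate, a progestin that binds the progesterone receptor, under the skin 48 h before, and in the vehicle group (n = 6 arrays) an equal volume of ethanol. The labels name no genotype other than the stock, and do not say whether day 15 was the day of injection or of collection. Nor do they say that arrays came from separate dams, and a p-value here sets a difference against the spread among arrays, part of which may be technical. RNA of the whole tissue was hybridised to Affymetrix Mouse430_2 arrays, and the comparison asks whether the progestin changed the level of these transcripts.

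VEGF ligands are secreted dimers that act on receptor tyrosine kinases of endothelial cells. VEGF-A, the product of Vegfa, binds the receptors encoded by Flt1 and Kdr and drives vessel growth and leakiness, whereas placental growth factor (Pgf) and VEGF-B (Vegfb) bind the Flt1 product. VEGF-C (Vegfc) and VEGF-D act through the Flt4 product, the main receptor of lymphatic vessels, and the neuropilins Nrp1 and Nrp2 hold ligands for these kinases and also bind class 3 semaphorins. In the reproductive tract, vessel growth and permeability change through the cycle and in pregnancy, and hydration of the cervix is part of its remodelling before birth.

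The array carried 22 probe sets for the 9 genes, and 10 of them, from 4 genes, reached a log2 intensity above 4 (a deposited intensity of 16) on at least 6 of the 12 arrays. That level was the limit for entering the test. Vegfa, Flt4, Nrp1 and Nrp2 entered, while Vegfb, Vegfc, Pgf, Flt1 and Kdr did not. The 12 probe sets below the limit lay between 2.28 and 4.15, near the low end of the range of values. By rank they were not all low, since the median deposited intensity of an array was 6.62 to 6.86, below the limit of 16. Where a gene had several probe sets, the brightest on average stands for it, and levels of different probe sets were not set against each other.

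Neither receptor of VEGF-A, the ligand that entered the test, reached the limit. Kdr, the main signalling receptor for VEGF-A, lay between 3.34 and 4.15 and exceeded 4 on 2 arrays, MPA 1 at 4.15 and vehicle 2 at 4.09. The 4 probe sets of Flt1, a high-affinity receptor that also exists as a soluble decoy, stayed below 4 on all arrays, with 2.59 to 3.27 for the highest. Among the ligands, Pgf ranged from 2.80 to 3.99, Vegfb from 3.31 to 3.82 and Vegfc from 2.43 to 3.83. Pgf stood above its vehicle range of 2.80 to 3.04 in MPA 2 (3.99), MPA 4 (3.70) and MPA 6 (3.38), and at 2.81 to 2.82 in the other MPA arrays. In a fit without the limit, the differences of these 5 genes ran from 0.07 for Vegfc to 0.39 (SE 0.21, adjusted p = 0.964 by limma) for Pgf. Values this low have no dependable order, and a transcript below the limit was not shown to be absent. On all arrays the 3' control probe set of Gapdh exceeded its 5' probe set by a log2 ratio of 4.14 to 5.60, and the part of this ratio in the low values was not tested.

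**Figure D1:**
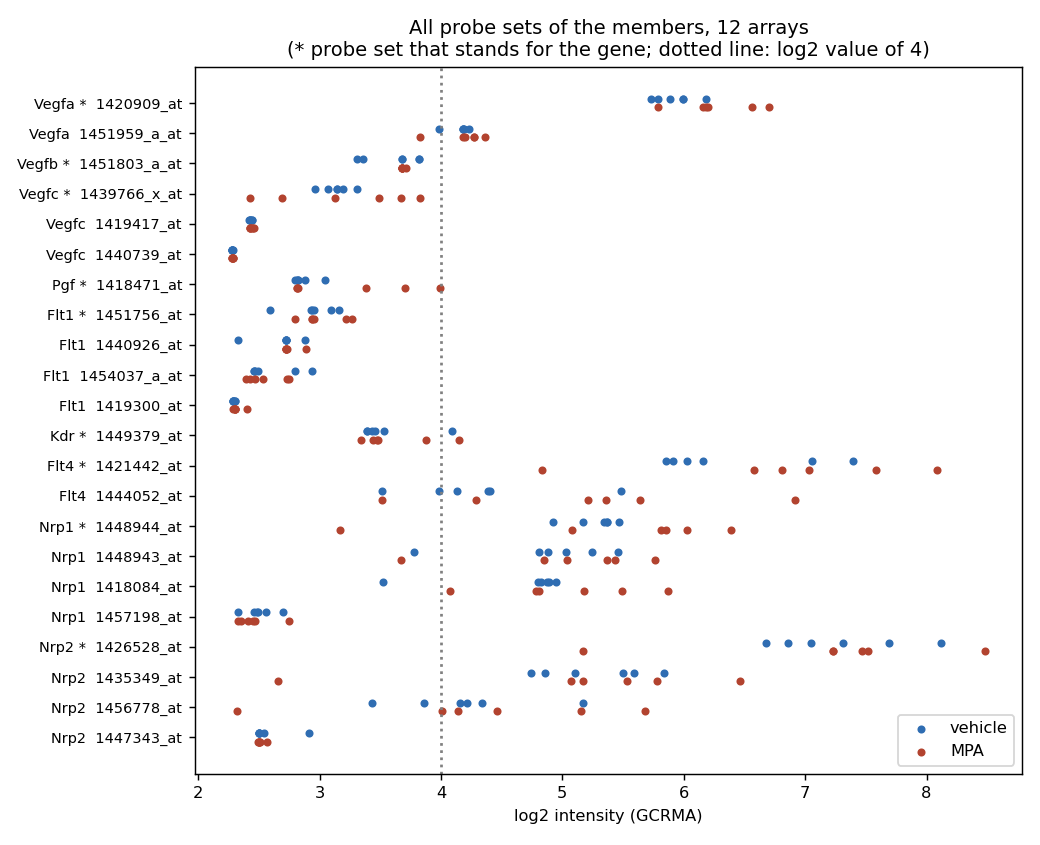
The plot shows the log2 intensity (horizontal axis) of all 22 probe sets of the 9 genes on 12 arrays, with vehicle in blue, MPA in red, an asterisk at the probe set that stands for the gene and a dotted line at 4. The probe sets of Vegfb, Vegfc, Pgf, Flt1 and Kdr lie left of the line or cross it on 2 arrays at most, while the leading ones of Vegfa, Flt4 and Nrp2 lie right of it on all 12.

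The regions upstream of the 4 measured genes are shown because Flt4 and Nrp2 varied together over the arrays, as given below, with Nrp1 and Vegfa for comparison. Each is the 250 bases before an annotated start (RefSeq, GRCm38.p6), read 5′ to 3′ on the gene's strand. For Vegfa, which has more than 1 annotated start, the most upstream is shown, and the Nrp1 start lies a little inside the annotated bounds of the gene. Capitals mark the GC box GGGCGG, bound by Sp1-type factors, on either strand.
Flt4 (chr11:49609429-49609678, plus strand): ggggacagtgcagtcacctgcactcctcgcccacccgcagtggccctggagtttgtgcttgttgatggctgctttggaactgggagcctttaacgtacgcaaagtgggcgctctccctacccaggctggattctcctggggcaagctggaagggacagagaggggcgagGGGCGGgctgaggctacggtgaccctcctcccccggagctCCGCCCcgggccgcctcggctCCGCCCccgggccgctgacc
Nrp2 (chr1:62703067-62703316, plus strand): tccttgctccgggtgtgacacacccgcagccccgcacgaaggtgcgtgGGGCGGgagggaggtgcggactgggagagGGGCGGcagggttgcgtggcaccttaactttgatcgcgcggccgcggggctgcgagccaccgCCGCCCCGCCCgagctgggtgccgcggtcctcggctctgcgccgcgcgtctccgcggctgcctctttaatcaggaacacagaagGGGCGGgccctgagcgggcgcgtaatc
Nrp1 (chr8:128358823-128359072, plus strand): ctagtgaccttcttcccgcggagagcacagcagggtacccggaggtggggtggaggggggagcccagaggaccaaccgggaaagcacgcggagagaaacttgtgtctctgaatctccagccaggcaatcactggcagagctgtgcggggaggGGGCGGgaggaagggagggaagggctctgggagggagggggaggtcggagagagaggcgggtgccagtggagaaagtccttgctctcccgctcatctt
Vegfa (chr17:46032378-46032627, minus strand): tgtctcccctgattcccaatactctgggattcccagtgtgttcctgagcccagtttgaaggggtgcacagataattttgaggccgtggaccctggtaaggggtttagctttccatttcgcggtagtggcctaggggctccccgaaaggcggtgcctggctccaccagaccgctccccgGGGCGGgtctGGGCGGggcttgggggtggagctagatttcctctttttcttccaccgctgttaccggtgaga

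These windows held 3 GC boxes for Flt4, 5 for Nrp2 (a pair of them overlapping by a base), 1 for Nrp1 and 2 for Vegfa, where 32.7% of 32851 promoter windows of this length held at least 1. No match was found in the 4 windows for the core of the hypoxia response element, ACGTG (in 16.6% of all windows), for the half-site of the progesterone and glucocorticoid receptors, AGAACA (16.1%), or for the AP-1 site TGANTCA (6.75%), searched on both strands. All 9 genes had a window, and GC boxes were not particular to the measured members. The first windows of Vegfb, Flt1, Vegfc, Pgf and Kdr held 4, 3, 2, 2 and 2. The second start of Vegfa held 1 copy of the hypoxia core. A match describes letters only, and its absence in a short window says nothing about the factor.

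None of the 4 measured members passed the test between MPA and vehicle. By limma with Benjamini-Hochberg adjustment over 8795 genes, 0 of 4 were called at an adjusted p under 0.05, where 1 gene of all tested was called (0.0114%), Wfdc15b (adjusted p = 0.0332), which is no member. With 1 array left out, 0 genes were called in 11 of 12 fits, and 1 gene without vehicle 1. At an unadjusted p under 0.05 stood 1 of 4, Vegfa, beside 5.0% of all genes. Single arrays ended this for Vegfa, since the unadjusted p by limma was 0.0623 to 0.0899 in 5 of the 12 fits that left out 1 array (MPA 3, MPA 4, vehicle 3, vehicle 4 or vehicle 6). The groups of no member were free of overlap, which held for 0.341% of genes. The median of the 4 log2 differences (MPA minus vehicle) was 0.22 and that of all genes 0.02, with 3 members higher and 1 lower.

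Vegfa (Entrez gene 22339), the ligand that drives blood vessel growth, was measured at a log2 intensity of 5.73 (lowest), 5.94 (median) and 6.18 (highest) in vehicle and at 5.79, 6.19 and 6.70 in MPA. Of the 6 MPA arrays, 5 lay above the vehicle mean and 3 above the highest vehicle array, with MPA 3 and MPA 4 the highest and MPA 1 within the vehicle range. MPA averaged 6.26 ± 0.33 (SD, n = 6) against 5.93 ± 0.16 (SD, n = 6) for vehicle, a 1.26-fold difference (95% interval 1.01 to 1.57). On the log2 scale this was 0.33 (SE 0.14), with an unadjusted p = 0.0388, an adjusted p = 0.996 by limma and an exact two-sided permutation p = 0.0519. The other Vegfa probe set, which was close to the limit at 3.83 to 4.36, differed by 0.03 (SE 0.09), and r between both sets over the arrays was 0.37. With both averaged, the difference was 0.18 (SE 0.10).

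Flt4 (Entrez gene 14257), the receptor for VEGF-C and VEGF-D, varied far more between arrays. Its log2 intensity was 5.85, 6.09 and 7.39 (lowest, median, highest) in vehicle and 4.83, 6.92 and 8.09 in MPA. The lowest MPA array, MPA 2, lay below all vehicle arrays, and MPA 5 and MPA 3 lay above all of them. MPA averaged 6.82 ± 1.12 (SD, n = 6) against 6.40 ± 0.66 (SD, n = 6) for vehicle, 1.34-fold apart with a 95% interval of 0.651 to 2.76. The log2 difference of 0.42 (SE 0.48, limma adjusted p = 1.00) was smaller than the SD of either group. Its other probe set gave 0.84 (SE 0.50) with r = 0.84 between both. In that set MPA 2 and vehicle 4 were both at 3.51. MPA 5 (6.92) and MPA 6 (5.64) lay above all vehicle arrays, and MPA 3 (5.21) lay below vehicle 6 (5.48).

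Nrp2 (Entrez gene 18187), the neuropilin that partners the Flt4 product, ran from 6.68 over a median of 7.18 to 8.12 in vehicle and from 5.17 over 7.35 to 8.48 in MPA. MPA 2 was again lowest and MPA 5 highest, and the other MPA arrays, at 7.23 to 7.52, fell inside the vehicle range. The MPA mean of 7.18 ± 1.09 (SD, n = 6) against 7.28 ± 0.54 (SD, n = 6) for vehicle gave a log2 difference of -0.10 (SE 0.45, 95% interval -1.08 to 0.88, limma adjusted p = 1.00). Of its 2 other measured probe sets, 1 gave -0.16 (SE 0.51) and 1 gave 0.10 (SE 0.48).

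Nrp1 (Entrez gene 18186), the co-receptor for VEGF-A, showed the most unequal spread of the measured members in the probe set that stands for it. In vehicle its log2 intensity lay between 4.92 and 5.47 with a median of 5.35, an SD of 0.20, whereas in MPA it lay between 3.17 and 6.39 with a median of 5.83, an SD of 1.17. In this probe set, MPA 3, MPA 4, MPA 5 and MPA 6 lay above every vehicle array, MPA 1 was inside the vehicle range, and MPA 2 at 3.17 was below the limit. The log2 difference was 0.11 (SE 0.44, 95% interval -0.84 to 1.07, limma adjusted p = 1.00). Its 2 other measured probe sets differed by 0.16 (SE 0.35) and 0.39 (SE 0.31) and followed the first with r = 0.86 and 0.73. Their spread was more even, with an SD of 0.73 and 0.63 in MPA and 0.58 and 0.55 in vehicle. In the set with r = 0.86, only MPA 6 (5.76) lay above the highest vehicle array (5.46). In the set with r = 0.73, MPA 3, MPA 4 and MPA 6 did so, and the lowest array was vehicle 4 (3.52), with MPA 2 at 4.07.

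**Figure D2:**
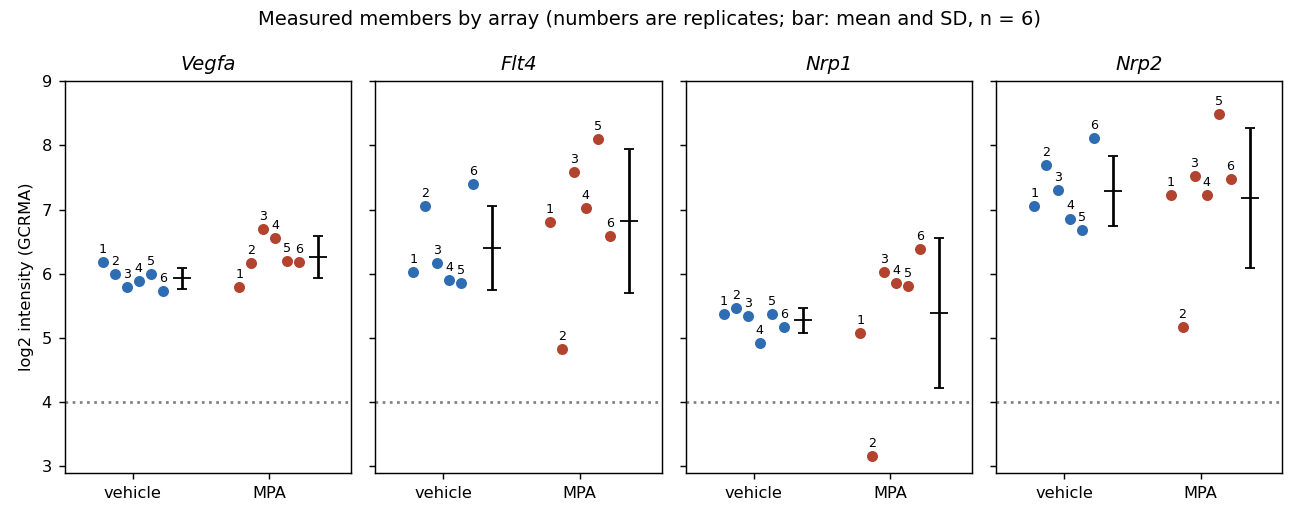
The plot gives the log2 intensity (vertical axis) of the 4 measured members on each array, numbered by replicate, with the mean and SD (n = 6) beside each group and a dotted line at the limit of 4. MPA 2 is the lowest array for Flt4, Nrp1 and Nrp2 but lies at 6.16, inside the range of the other MPA arrays, for Vegfa.

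The within-group spread of Flt4, Nrp1 and Nrp2 was large for the table. Their pooled SD was 0.92, 0.84 and 0.86 on the log2 scale, beside a median of 0.25 over all genes tested, and 3.70%, 4.97% and 4.60% of genes had a larger one. Vegfa, with 0.26, was near the middle of the table. Without MPA 2, the SD of the MPA group went from 1.12 to 0.61 for Flt4, from 1.17 to 0.48 for Nrp1 and from 1.09 to 0.52 for Nrp2, so that a single array made up much of the spread.

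The arrays MPA 2 and MPA 5 lay at the ends of the first principal component, and leaving out MPA 2 moved the differences of Flt4, Nrp1 and Nrp2. Without MPA 2 the log2 difference was 0.82 (SE 0.34) for Flt4, 0.56 (SE 0.20) for Nrp1, 0.30 (SE 0.29) for Nrp2 and 0.35 (SE 0.15) for Vegfa, with limma adjusted p of 0.471, 0.438, 0.714 and 0.474. Then 3 of 4 members, all but Nrp2, had an unadjusted p under 0.05, beside 10.2% of all genes. The marker lists described below moved with that array too. Without it the difference of their centred means went from 0.02 to 0.31 for blood endothelium, from 0.28 to 0.67 for lymphatic endothelium and from 0.08 to 0.44 for smooth muscle. For stroma it went from 0.16 to 0.53 and for macrophages from 0.56 to 0.86, and the part of these cells in the members' differences was not tested. Leaving out MPA 5 as well gave 0.60 (SE 0.33) for Flt4, 0.56 (SE 0.22) for Nrp1, 0.08 (SE 0.25) for Nrp2 and 0.38 (SE 0.17) for Vegfa. Here 2 of 4, Nrp1 and Vegfa, had an unadjusted p under 0.05, beside 7.23% of all genes, and no member was called after adjustment. Without MPA 5 alone, the difference was 0.17 for Flt4, 0.03 for Nrp1 and -0.36 for Nrp2. Vegfa was the member that these arrays moved least.

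The arrays were washed on 3 fluidics stations, and only station 2, with MPA 1, MPA 2, vehicle 5 and vehicle 6, held both groups. Within it the log2 differences were 0.11 (SE 0.21) for Vegfa, -0.80 (SE 0.92) for Flt4, -1.15 (SE 0.71) for Nrp1 and -1.20 (SE 0.92) for Nrp2, with limma adjusted p of 0.840 to 0.916. With the station as a block the differences were the same ones, since no other station holds both groups, and Nrp1 had -1.15 (SE 0.47, adjusted p = 0.726 by limma). The signs of Flt4 and Nrp1 thus turned, on 2 arrays against 2 that include MPA 2. For the remaining 8 arrays, station and treatment cannot be told apart.

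**Figure D3:**
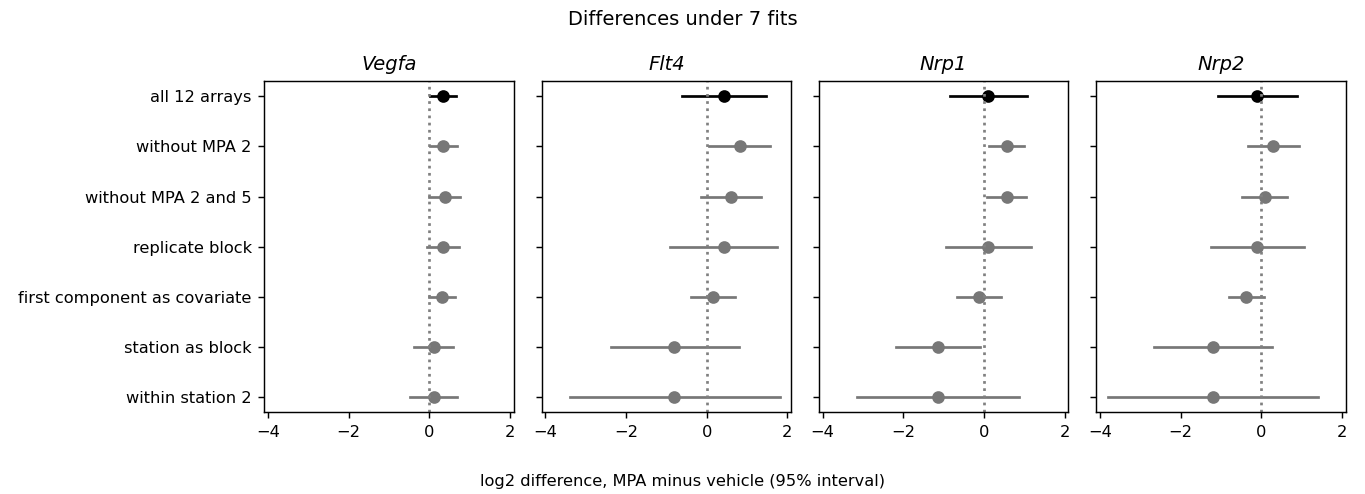
The plot sets the log2 difference, MPA minus vehicle, with its 95% interval (horizontal axis) of each measured member under 7 fits. The Vegfa estimate stays right of 0 in all 7, between 0.11 and 0.38, while those of Flt4, Nrp1 and Nrp2 fall on both sides.

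Flt4 and Nrp2 rose and fell together from array to array. Over the 12 arrays Pearson's r was 0.91 (permutation p = 8e-05, adjusted 4.8e-04 over the 6 pairs) and Spearman's rho 0.92 (permutation p = 1.3e-04, adjusted 7.8e-04). It was 0.96 within MPA, 0.97 within vehicle and 0.81 without MPA 2 and MPA 5, the 2 arrays farthest from the Flt4 median. Nrp1 correlated less firmly with Flt4 (r = 0.70, permutation p = 0.0119, adjusted p = 0.0308, rho = 0.54, permutation p = 0.0735, adjusted p = 0.127) and with Nrp2 (r = 0.77, permutation p = 0.0154, adjusted p = 0.0308, rho = 0.52, permutation p = 0.0846, adjusted p = 0.127). Both relations rest on MPA 2, since r without that array was 0.41 and 0.30, and it was 0.36 for each without the 2 farthest arrays. Within MPA r was 0.81 and 0.87, and within vehicle 0.15 and 0.12. Vegfa gave r = 0.25 with Flt4, 0.33 with Nrp1 and -0.03 with Nrp2, with permutation p of 0.434, 0.294 and 0.929 (adjusted 0.521, 0.441 and 0.929). Its rho was 0.24, 0.66 and 0.06, with permutation p of 0.457, 0.0218 and 0.869 (adjusted 0.548, 0.0654 and 0.869), and without MPA 3 and MPA 4 its r was -0.13, 0.06 and -0.19. For Vegfa and Nrp1, MPA 2 decided the value, as r was 0.72 without that array. A station holds 4 arrays, too few for a correlation of its own.

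Marker transcripts of other cell types in the tissue were read beside these genes. Markers of stratified epithelium (8 of 8), smooth muscle (6 of 6) and stroma (6 of 6) entered the test. So did Pgr, the receptor that MPA binds, at a log2 difference of -0.32 (SE 0.09, limma adjusted p = 0.863). Emx2 entered at 0.39 (SE 0.11, limma adjusted p = 0.863) and Esr1 at 0.13 (SE 0.12). Hoxa10 and Hoxa11 entered at 0.09 (SE 0.58) and 0.24 (SE 0.63), while Hoxa13 stayed below 4 on all arrays. Of these 5 reproductive tract markers that entered, 2, Pgr and Emx2, had an unadjusted p under 0.05 by limma, beside 5.0% of all genes. Of 7 trophoblast and decidua markers on the array, 6 stayed below 4 throughout, Tpbpa among them, and Psg23 was level at 4.27 and 4.25 in MPA and vehicle. Blood endothelial markers were dim. Of 20, 7 entered and 8, among them Tie1, Eng and Vwf, never exceeded 4. Pecam1 did so on 2 arrays and Cdh5 on 1. Cd93 and Cd34, which had the smallest p among those that entered, differed by 0.11 (SE 0.26) and 0.22 (SE 0.56). The 7 that entered had a median log2 difference of -0.02 (0 called, 0 at an unadjusted p under 0.05, 3 higher and 4 lower), and their summed intensity over all 20 was 188 to 791 in MPA and 273 to 707 in vehicle. The mean of these 7, centred over the arrays, was lowest in MPA 2 (-1.49) and vehicle 4 (-0.73) and highest in MPA 5 (0.76). In whole tissue, fewer cells of a type and less RNA per cell cannot be told apart.

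With that blood endothelial mean, which holds no member, Flt4 gave r = 0.77 (permutation p = 0.00262, adjusted p = 0.00349 over 4 relations), Nrp1 0.89 (permutation p = 4.7e-04, adjusted p = 0.00188) and Nrp2 0.86 (permutation p = 0.00117, adjusted p = 0.00234). Their rho was 0.60 (permutation p = 0.0442, adjusted p = 0.0589), 0.83 (permutation p = 0.00139, adjusted p = 0.00556) and 0.71 (permutation p = 0.0124, adjusted p = 0.0248). Without MPA 2 and vehicle 4, the arrays farthest from the median, r was 0.49, 0.60 and 0.60, so the size of all 3 rests in part on these arrays. Within vehicle it was 0.39 for Flt4, 0.91 for Nrp1 and 0.43 for Nrp2, and within MPA 0.92, 0.94 and 0.98. Vegfa gave r = 0.15 (permutation p = 0.635, adjusted p = 0.635) and rho = 0.43 (permutation p = 0.161, adjusted p = 0.161), and 0.25 without the same arrays.

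Flt4 and Nrp2 followed lymphatic, smooth muscle and stromal markers as well. The lymphatic mean (Lyve1, Pdpn, Mmrn1, Reln and Vegfd) gave r = 0.93 with both (permutation p = 4e-05 for Flt4 and 2e-05 for Nrp2, adjusted 1.92e-04 and 1.6e-04 over 24 relations) and rho = 0.92 with both (adjusted permutation p = 3.9e-04). Without Vegfd, which is itself a VEGF ligand, r was 0.93 and 0.92. The smooth muscle mean gave r = 0.92 with Flt4 and 0.96 with Nrp2 (permutation p = 1e-05, the smallest 100000 draws can give, adjusted 1.2e-04) and rho = 0.99 and 0.91 (adjusted permutation p = 2.4e-04 and 3.9e-04). Without the 2 farthest arrays r was 0.81 and 0.80 for the lymphatic mean and 0.92 and 0.90 for the smooth muscle mean. The stromal mean gave r = 0.84 with Flt4 and 0.88 with Nrp2 (adjusted permutation p = 9e-04 and 0.00123), and 0.71 and 0.68 without the 2 farthest arrays. With the smooth muscle mean, Nrp1 gave r = 0.82 and rho = 0.52, and r fell to 0.25 without the 2 farthest arrays. Nrp1 followed the stromal mean at r = 0.91 (permutation p = 1.4e-04, adjusted p = 4.8e-04) and rho = 0.84 (adjusted permutation p = 0.00245), and 0.67 without the 2 farthest arrays. Stratified epithelium ran the other way, with r = -0.79 for Flt4 (permutation p = 0.00119, adjusted p = 0.00220, rho -0.92) and -0.74 for Nrp2 (permutation p = 0.0309, adjusted p = 0.0436, rho -0.92), and -0.78 and -0.73 without MPA 2 and MPA 5. These relations were added after the values were seen, and the part of cell composition in the levels of Flt4, Nrp1 and Nrp2 was not tested.

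**Figure D4:**
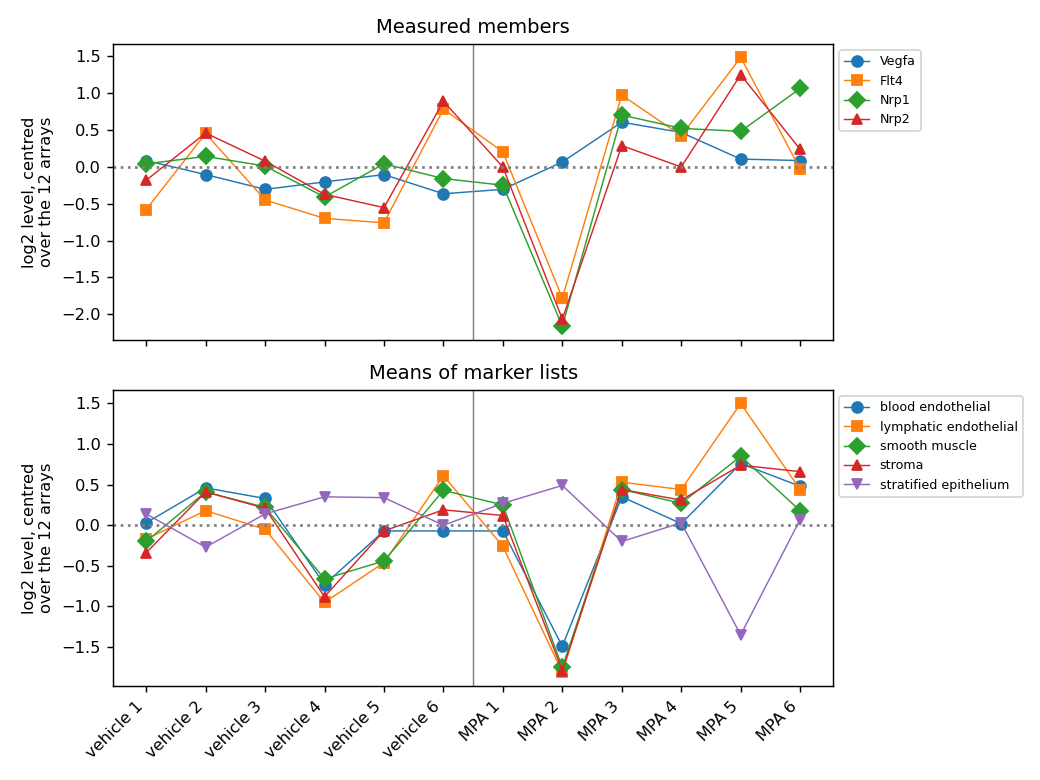
Log2 levels centred over the 12 arrays (vertical axis) are plotted by array for the 4 measured members (top) and the means of 5 marker lists (bottom), with vehicle left and MPA right of the vertical line. Flt4, Nrp1 and Nrp2 dip in MPA 2 together with the endothelial, smooth muscle and stromal means (-1.49, -1.75 and -1.79), where the stratified epithelial mean is at 0.49.

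Between the groups, 0 of the smooth muscle, stromal, epithelial and lymphatic markers were called and 0 had an unadjusted p under 0.05. The 6 smooth muscle markers differed by 0.00 (Myh11, SE 0.34) to 0.22 (Cnn1, SE 0.46), with Acta2 at 0.12 (SE 0.29), Des at 0.01 (SE 0.47) and Tagln at 0.02 (SE 0.36). The 6 stromal markers differed by 0.03 (Pdgfra, SE 0.50) to 0.27, with the collagen genes Col1a2 at 0.27 (SE 0.25) and Col3a1 at 0.16 (SE 0.25). Of 8 stratified epithelial markers 7 were lower, with the keratins Krt14 at -0.43 (SE 0.29) and Krt13 at -0.54 (SE 0.37), and 4 of 5 lymphatic markers were higher, with Mmrn1 at 0.65 (SE 0.43) and Lyve1 at 0.56 (SE 0.73). The summed intensity of the 6 smooth muscle markers was 7810 to 40300 in MPA and 15100 to 31900 in vehicle, and that of the 6 stromal markers 10900 to 31800 and 14600 to 26500. The 8 stratified epithelial markers summed to 11800 to 33600 in MPA and 21200 to 32300 in vehicle. The 6 lymphatic markers on the array summed to 261 to 1680 in MPA and 523 to 996 in vehicle, and their transcription factor Prox1 exceeded 4 on 1 array. Vegfd, the ligand of Flt4 that is no member but was measured, had a log2 intensity of 8.17 ± 1.42 (SD, n = 6) in MPA against 7.99 ± 0.62 (SD, n = 6) for vehicle, a difference of 0.18 (SE 0.57, limma adjusted p = 1.00). The 8 pericyte markers, of cells that wrap small vessels, all entered, with 5 higher, 3 lower, 0 called and a median difference of 0.15, among them Anpep at 0.43 (SE 0.20) and Notch3 at -0.19 (SE 0.28). Of 10 macrophage markers on the array 7 entered, all higher in MPA, where 56.3% of all genes tested were higher. Of these markers 0 were called and 2 had an unadjusted p under 0.05 by limma, beside 5.0% of all genes. The 2 were Aif1 and Tyrobp (0.69, SE 0.19), while the macrophage markers Cd68, Adgre1 and C1qa never exceeded 4. The summed intensity of the 10 was 771 to 3490 in MPA and 1060 to 1980 in vehicle. For the 7 that entered, the median difference was 0.60. Their mean gave r with Flt4, Nrp1 and Nrp2 of 0.84, 0.80 and 0.82 (adjusted permutation p = 0.00138 each), with rho of 0.84, 0.66 and 0.80.

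**Figure D5:**
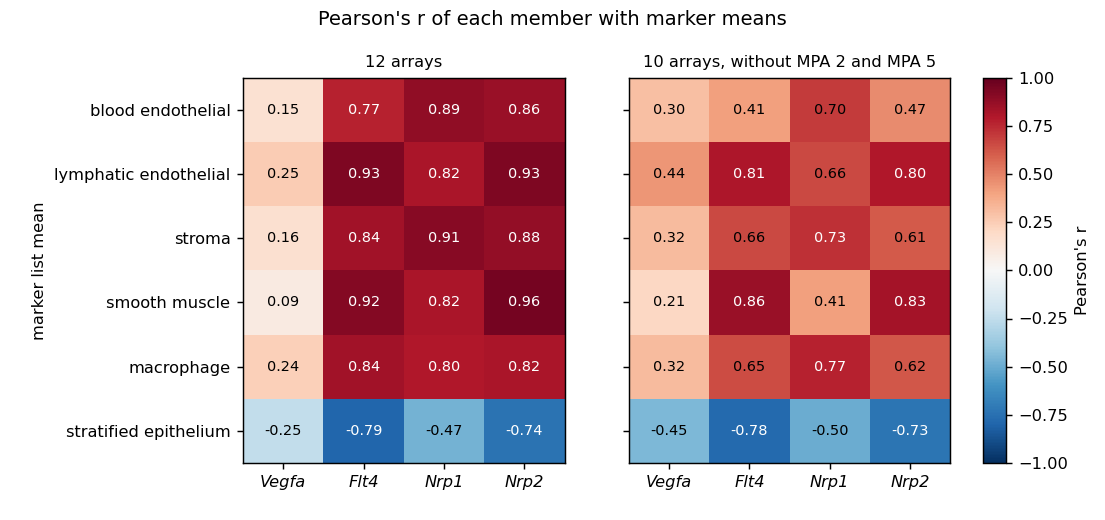
Each cell gives Pearson's r across arrays between a measured member (columns) and the centred mean of a marker list (rows), for 12 arrays (left) and without MPA 2 and MPA 5 (right). For Flt4 and Nrp2 the smooth muscle and lymphatic rows keep r of 0.80 to 0.86 on the right, the blood endothelial row drops to 0.41 and 0.47, and Vegfa stays between -0.45 and 0.44 throughout.

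The genes whose profile was most like each member over the 12 arrays were found among all 8795. For Vegfa they were Pim3 (r = 0.888), Unc45a (0.863) and Adgrg6 (0.830). Flt4 was matched by Ppp1r18 (r = 0.966), Ecm1 (0.960) and Rras (0.955), and Nrp1 by Prdx3 (0.970), Selenop (0.963) and Gnai1 (0.948). The profile of Nrp2 was closest to Pdlim7 (r = 0.981), Prune2 (0.979) and Speg (0.978). None of these 12 genes passed between the groups (limma adjusted p = 1.00).

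The other genes of the pathway were read from 6 lists with 95 genes in all, of which 58 entered the test. None was called, 32 were higher and 26 lower, and the median log2 difference was 0.02 as over all genes. An unadjusted p under 0.05 by limma was found for 1 (1.72%), beside 5.0% of all genes. That gene was Icam1, an adhesion molecule that VEGF can induce on endothelium, which ran from 4.44 to 5.27 in vehicle and from 5.30 to 5.69 in MPA. Its groups did not overlap, and its log2 difference was 0.64 (SE 0.15) with a limma adjusted p = 0.592. Groups without overlap were found for 0.341% of all genes tested, the macrophage marker Aif1 (0.93, SE 0.21, adjusted p = 0.592 by limma) among them. Icam1 also responds to inflammatory signals, and the cause of its difference was not tested. Of the 16 VEGF-induced genes listed, only 5 entered the test, Icam1 included, and 10 never exceeded 4. The other 4 measured VEGF-induced genes gave 3 higher and 1 lower, with Nr4a1, a nuclear receptor of the early response, at 0.13 (SE 0.19).

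Partners of the neuropilins were measured for 5 of 12 genes, 2 higher and 3 lower with 0 called. Sema3c, a secreted semaphorin that binds neuropilins, had a log2 difference of 0.25 (SE 0.16), and Plxna2, a plexin that transmits semaphorin signals, one of -0.39 (SE 0.25). Of the angiopoietins and Tie receptors, which stabilise vessels, Tek alone entered, at 0.03 (SE 0.45), and Angpt1, Angpt2, Angpt4 and Tie1 never exceeded 4. Among 19 mediators inside the cell, 11 were higher and 8 lower with 0 called, led by Pik3ca, a catalytic subunit of PI3-kinase, at 0.12 (SE 0.07) and the kinase Mapk14 at 0.16 (SE 0.11). The 10 measured VEGF antagonists were 6 higher and 4 lower with 0 called, among them the thrombospondin Thbs2 at -0.53 (SE 0.34) and its family's receptor Cd47 at 0.21 (SE 0.15). Hypoxia is a strong inducer of Vegfa, and 18 genes of that response gave 8 higher, 10 lower and 0 called. Their median was -0.02, with Egln1, an oxygen-sensing hydroxylase, at -0.21 (SE 0.11), Pdk1 at -0.39 (SE 0.34) and the factors Hif1a and Epas1 at 0.02 (SE 0.10) and 0.03 (SE 0.15). Limma adjusted p was 1.00 for each gene given a difference here, and 0 of the members of these 5 lists had an unadjusted p under 0.05.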

How the data were processed

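In the deposited table each of 45101 probe sets has a linear intensity on every one of the 12 arrays. GCRMA, a method that takes out background from the base composition of each probe and puts the arrays on a common scale, is named in the submitters' processing notes, without a version in the sources used here. Values ran from 4.39 to 78000, and log2 was taken without a pseudocount. Per the file headers of the instrument records, which are other values than expression, the fluidics station of each array was read. Of the probe sets, 34958 had 1 gene symbol in the platform annotation, 932 had several and 9211 were not listed; 34754 matched RefSeq (GRCm38.p6) by Entrez number. The 22 probe sets of the members were found by symbol.

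The groups were fitted with limma 3.58.1 (R 4.3.3) across all genes that exceeded a log2 intensity of 4 on 6 arrays or more. Benjamini-Hochberg adjusted p under 0.05 was called. Precision is set by the number of arrays, whose median intensities lay between 6.62 and 6.86. The smallest exact p for 6 against 6 is 0.00216. Alternatives were other filters, a pseudocount, other probe set rules and scalings, the station, the replicate number, array quality measures and arrays left out. Correlations across arrays used 100000 permutations. The fit and the permutation were tested on simulated data. The members, lists and tests were chosen with earlier results of these data known. Named were all 9 members, called genes of each list or else the 2 with the smallest p, and 3 most alike genes per member. In addition, Hif1a, Epas1, Esr1, Hoxa10, Hoxa11, Vegfd, Myh11, Des, Tagln, Pdgfra and dim markers were named after their values were seen. Figures were drawn with matplotlib 3.10.9.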

Additional observations from a re-analysis of the deposited data

Results flagged for a closer look

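Of 30 groups of 6 values (9 genes and 6 further measured probe sets in each treatment), 7 held an outlying array. Its gap to its neighbour was unusually large for the group's range. Among independent groups of normally distributed values, about 1 in 20 would hold such an array. The groups here include near-tied low values and several probe sets of the same gene, so that rate is no measure of an excess. Among measured probe sets, the Nrp2 set that followed the main one with r = 0.98 was at 2.66 in MPA 2 with the next MPA array at 5.07, and the Nrp1 set that followed the main one with r = 0.73 was at 3.52 in vehicle 4 with the next vehicle array at 4.80. The second Vegfa set was at 3.83 in MPA 6 and at 3.98 in vehicle 3, each with a neighbour at 4.18. Below the limit of the test, Kdr was at 4.09 in vehicle 2 with the next at 3.53, Pgf at 3.04 in vehicle 2 with the next at 2.88, and Vegfb at 3.71 in MPA 6 with the next at 3.68. The causes were not tested.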

How the results depend on the processing

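No member was called under any of the 25 alternatives. The count of all genes called went from 1 to 0 without the filter on dim genes, within station 2, without MPA 2 and MPA 5, with the first principal component or the Gapdh ratio as a covariate, and was between 0 and 1 when single arrays were dropped (0 in 11 of 12 fits); the cause was not tested. Vegfa stayed higher in MPA throughout, from 0.11 to 0.47, but its unadjusted p was not under 0.05 in 12 of the 25. Flt4 turned to -0.80 with the station as a block and within station 2, was 0.16 with the first component, and ran from 0.17 (without MPA 5) to 0.82 (without MPA 2) with 1 array left out. Nrp1 could not be fitted with the filter at 6, turned to -1.15 in both, to -0.12 with the first component, to -0.14 with the Gapdh ratio, and ran from -0.09 to 0.56 with 1 array left out (negative without MPA 3 or MPA 6). Nrp2 went to -1.20 with the station as a block and within station 2, and to -0.37 with the first component. It turned to 0.08 without MPA 2 and MPA 5, and ran from -0.36 to 0.30 with 1 array left out (positive without MPA 2 or vehicle 6). Replicate numbers did not pair the samples (r of same-numbered deviations from -0.598 to 0.047): with the replicate block 0 genes were called, 276 instead of 440 had an unadjusted p under 0.05, and Vegfa had a difference of 0.33 (SE 0.17, adjusted p = 1.00 by limma). Without MPA 2, 894 genes had an unadjusted p under 0.05. The probe set fit called none of the members' 10 sets, and 0.0% of 17078.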
